A study of Homo sapiens with 12 samples.

Results

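The genes described here are 40 interferon-stimulated and antigen presentation genes, chosen by symbol from the table of RNA-seq expected counts deposited for MIAPaCa2 cells, an established human pancreatic ductal adenocarcinoma cell line. All 40 symbols were found among the 26475 gene symbols of the table, and 37 of them passed a filter on low counts and were tested with 14582 genes in all. The 12 libraries formed 4 groups of 3. Parental cells were either untreated or treated with an inhibitor of lactate dehydrogenase A, which the study names as sodium oxamate, and oxamate-resistant cells were either untreated or treated in the same way. Untreated is the word of the sample labels, whereas the paper describes these controls as given vehicle. The resistant cells were a polyclonal population of the same line that had survived continuous culture in 10 mM sodium oxamate for 4 weeks, so every comparison between the cell lines rests on 1 selection. The dose and length of the oxamate treatment before RNA extraction, and how long the untreated resistant cells had been kept without the drug, were not given in the sources used here. Nothing stated that the 3 replicates of a group were separate cultures, and the p-values therefore measure the spread between these samples, which may be technical.

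Interferons are secreted proteins that warn cells of infection. Type I and type III interferons bind receptors on the cell surface, and the receptor-bound kinases JAK1 and TYK2 then phosphorylate signalling proteins that include STAT2. STAT2 and IRF9 are subunits of the factor ISGF3, which binds the interferon-stimulated response element in gene promoters. Interferon gamma acts through the gamma-activated site in promoters and through the transcription factor IRF1. Many tumour cell lines hold a low level of these transcripts without added interferon. The genes studied fall into 7 roles, namely sensors of viral RNA, signalling factors, effectors that act on RNA, proteins that restrict viruses at membranes or in the cytoplasm, ISG15 conjugation and ADP-ribosylation, the IFI proteins, and presentation of peptides on major histocompatibility complex (MHC) class I molecules.

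Promoters of 5 members are shown, because they carry the response element in members that lay on opposite sides of the comparison between the cell lines (ISG15, IFITM1 and IFIT1 lower in resistant cells, IFIT5 and DTX3L higher). Each stretch runs from 150 bases before the RefSeq start to 20 bases from it on the plus strand of GRCh38.p14, and capitals mark each match to the response element, searched as GAAANNGAAA on both strands with overlapping matches counted. ISG15 lies at chr1:1013347-1013516, IFITM1 at chr11:313890-314059, IFIT1 at chr10:89392473-89392642, IFIT5 at chr10:89414418-89414587 and DTX3L at chr3:122564188-122564357.
ISG15: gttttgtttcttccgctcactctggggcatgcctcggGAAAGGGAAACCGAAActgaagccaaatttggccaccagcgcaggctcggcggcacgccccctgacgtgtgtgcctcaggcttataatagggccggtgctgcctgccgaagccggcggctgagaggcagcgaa
IFITM1: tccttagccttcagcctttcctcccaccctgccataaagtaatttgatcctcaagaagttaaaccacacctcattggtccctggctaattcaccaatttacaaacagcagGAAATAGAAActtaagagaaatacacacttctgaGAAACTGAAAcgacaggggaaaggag
IFIT1: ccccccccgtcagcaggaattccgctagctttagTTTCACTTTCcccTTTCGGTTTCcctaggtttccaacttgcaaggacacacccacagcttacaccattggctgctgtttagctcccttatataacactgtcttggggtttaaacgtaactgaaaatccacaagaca
IFIT5: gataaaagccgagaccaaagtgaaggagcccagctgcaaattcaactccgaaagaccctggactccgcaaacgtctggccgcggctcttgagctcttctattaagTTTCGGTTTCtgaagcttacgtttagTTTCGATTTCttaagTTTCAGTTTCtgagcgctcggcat
DTX3L: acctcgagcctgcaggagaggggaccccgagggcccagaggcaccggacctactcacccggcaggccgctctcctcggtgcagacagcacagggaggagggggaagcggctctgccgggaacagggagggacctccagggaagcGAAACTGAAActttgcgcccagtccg
The stretches of ISG15, IFITM1 and IFIT1 each held 2 matches, that of IFIT5 held 3 and that of DTX3L held 1. A RefSeq promoter entry of 300 bases was matched for 31 of the 40 members, and 23 of these (74.2%) held the response element at least 1 time, against 4.38% of 27305 genes with a promoter entry. The gamma-activated site, searched as TTCNNNGAA on both strands, was found in 10 of the 31 (32.3%), against 9.38% of all genes. Among the members with an entry, 11 of 11 that were lower and 9 of 14 that were higher in untreated resistant cells held the response element, and under oxamate these were 12 of 15 lower and 9 of 13 higher. Whether the shares differ by direction was not tested. These matches describe letters in the windows and do not show binding.

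Library totals ranged from 46698729 to 114222169 expected counts, and every parental library was deeper than every resistant library. A count of 3 corresponded to between 0.0283 and 0.0581 CPM. This unit, used below, gives counts relative to a library total scaled by the trimmed mean of M values (TMM). It is not divided by gene length, so that CPM compares a gene between libraries and not a gene with another gene. The keratins KRT8, KRT18 and KRT19 were expressed in all libraries, as was the mesenchymal gene VIM, whereas the epithelial markers EPCAM and CDH1 had at most 3 and 2 counts. These markers moved with the line comparison. KRT8 fell from 1458 ± 52.7 to 676 ± 6.11 CPM and VIM from 9445 ± 63.6 to 6282 ± 89.6 CPM in untreated resistant cells (mean ± SD, n = 3), KRT18 and KRT19 were also called lower, and the mesenchymal gene FN1 rose from 0.339 ± 0.0568 to 19.2 ± 1.596 CPM. The part of this shift in the differences between the lines was not tested. The 6 leukocyte markers summed to between 19.98 and 28.9 CPM, of which CD14 and LYZ passed the filter, and the leukocyte gene PTPRC and the fibroblast gene DCN had at most 3 and 2 counts. The 5 fibroblast and endothelial markers summed to between 1.06 and 2.41 CPM, and COL1A1 and VWF passed the filter. By the study's rule given below, COL1A1 rose with oxamate in parental cells and VWF was lower in resistant cells in both conditions. Transcripts retained in the nucleus (MALAT1, NEAT1, KCNQ1OT1 and MIAT) were unequal between groups, with summed levels of 321 to 357 CPM in untreated parental cells, 544 to 1187 CPM in oxamate-treated parental cells, 534 to 1112 CPM in untreated resistant cells and 1080 to 1407 CPM in oxamate-treated resistant cells. The highest value in both middle groups came from replicate 3. A fit with this sum as a covariate was therefore made for every member, and calls that it removed or added are named beside the members' values. Because the sum differed between the groups, the covariate is partly confounded with treatment and line. A call that it removed or added therefore cannot be assigned to nuclear-retained RNA or to the groups.

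Taken as a median log2 fold change, the 37 tested members scarcely moved in any comparison. The members' median log2 fold change was 0.06 for oxamate in parental cells, 0.05 for oxamate in resistant cells, 0.05 for untreated resistant against untreated parental cells and -0.09 for the same comparison under oxamate. Medians over all 14582 genes were 0.003, -2.1e-05, 0.03 and 0.01 in the same order. The flat median was made of members that moved in opposite directions, and the plot of members by library shows the split, with sensors, MX1, SAMD9, PARP9, PARP14 and DTX3L above and ISG15, OASL, OAS2 and the IFITM genes below their parental level in resistant cells. The summed level of all 40 members, set mostly by the highest of them, was not flat. It was 2019 to 2086 CPM in untreated parental and 2371 to 2458 CPM in oxamate-treated parental cells. In resistant cells the sum was 1785 to 1862 CPM untreated and 1742 to 1771 CPM with oxamate.

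**Figure D1:**
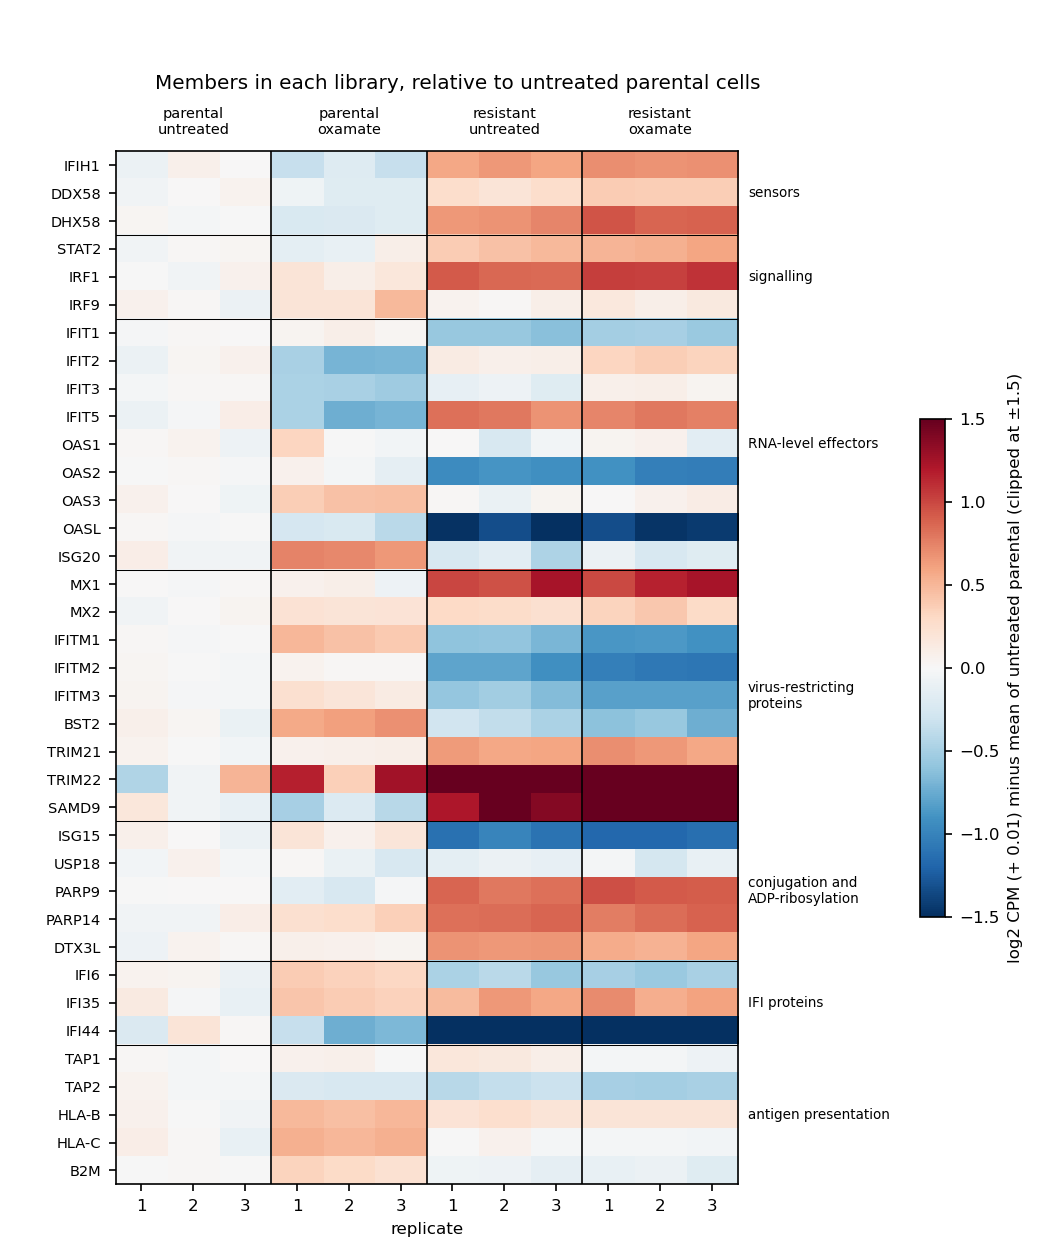
Level of the 37 tested members in each of the 12 libraries, as log2 CPM with 0.01 added, minus the mean of the 3 untreated parental libraries (color scale clipped at 1.5 in both directions; columns are replicates, rows are grouped by role). In the 6 resistant libraries IFIH1, DHX58, IRF1, SAMD9 and PARP9 are red while ISG15, OASL and IFI44 are blue.

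Between the cell lines without the drug, 17 members were higher and 14 lower in resistant cells at an adjusted p under 0.05 (quasi-likelihood F test of edgeR, Benjamini-Hochberg adjustment over 14582 genes). Among all genes tested 38.4% were called higher and 37.3% lower, beside which 45.9% of members higher and 37.8% lower is no result particular to them. By the study's own rule (p under 0.05 before adjustment, with a change of more than 1.5-fold), 11 members were higher and 7 lower, against a background of 17.2% and 6.14%. The 11 were IFIH1, DHX58, IRF1, IFIT5, MX1, TRIM21, TRIM22, SAMD9, PARP9, PARP14 and DTX3L, and the 7 were IFIT1, OAS2, OASL, IFITM1, IFITM2, ISG15 and IFI44. The 3 libraries of each line did not overlap for 18 members higher and 15 lower in resistant cells, against 39.7% and 37.9% of all genes.

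Under oxamate, 17 members were higher and 18 lower in resistant than in parental cells, which is 45.9% and 48.6% of members, with 40.6% and 39.7% of all genes called in these directions. At the study's threshold 10 were higher and 10 lower, against 22.9% and 11.4%. Of the members, 15 were higher and 13 lower in resistant cells in both conditions. The share of all genes called alike in both conditions was not counted, so these counts are no result particular to the members. TAP1 and HLA-B were higher in resistant cells without the drug and lower with it, IFIT3 was lower without it and higher with it, and OAS1 and USP18 were not called in either condition. The plot of the differences between the lines shows that the separation was wider under oxamate for members such as SAMD9, IFIT5, IFIT2, DHX58, IFIH1, BST2, ISG20 and IFITM1. For others it was narrower, such as IFI44 (-2.57 to -1.49), OASL (-1.46 to -1.12), PARP14 (0.85 to 0.54) and IFI35 (0.56 to 0.24).

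**Figure D2:**
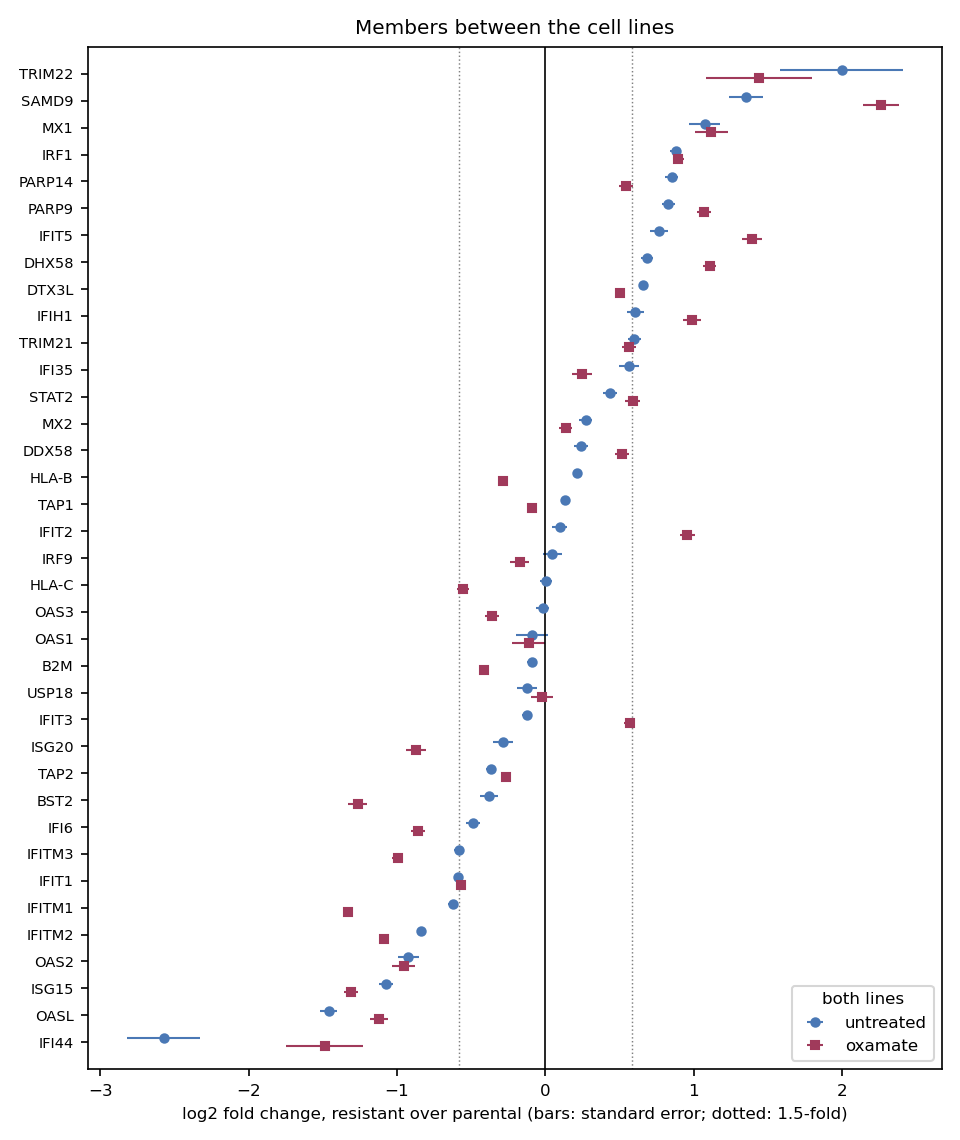
Difference between the cell lines for the 37 tested members, as the log2 fold change of resistant over parental cells (x axis) in untreated cells (circles) and under oxamate (squares), sorted by the untreated value, with standard errors as bars and dotted lines at a 1.5-fold change. SAMD9 goes from 1.35 to 2.26 and IFITM1 from -0.62 to -1.33, whereas IFI44 goes from -2.57 to -1.49.

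Oxamate changed members in both directions in parental cells. There 16 members rose and 11 fell, with 28.3% and 30.4% of all genes called, and at the study's threshold 3 rose (ISG20, BST2 and TRIM22) and 3 fell (IFIT2, IFIT5 and IFI44), against 5.69% and 4.19%. With DESeq2 in place of edgeR, TRIM22, IFI44, SAMD9 and DDX58 were not called in parental cells at an adjusted p under 0.05. Resistant cells given oxamate showed 5 members higher (DHX58, IRF1, IFIT2, IFIT3 and SAMD9) and 7 lower (IFITM1, IFITM2, IFITM3, BST2, DTX3L, TAP1 and TAP2), against 9.01% and 12.5% of all genes. None passed the study's threshold in resistant cells, where 2.23% of all genes rose and 0.274% fell by that rule. TRIM22 had a fitted change of 1.53-fold in those cells, with adjusted p = 0.181. When only the 6 resistant libraries were fitted, 8 members were higher in place of 5.

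Whether the responses differed was tested directly, as the response of resistant minus that of parental cells. It was above 0 for 10 members and below 0 for 15 at an adjusted p under 0.05, with 22.7% and 21.4% of all genes called, and at the study's threshold for 5 and 3, against 5.54% and 2.94%. Of the members, 7 were called in opposite directions in the cell lines, and the share of all genes called so was not counted. IFITM1, IFITM3 and BST2 rose with oxamate in parental cells and fell in resistant cells, whereas DHX58, IFIT2, IFIT3 and SAMD9 fell in parental cells and rose in resistant cells. The parental fall of SAMD9 and the resistant fall of BST2 lost their calls when some single libraries were left out. IRF1 rose and TAP2 fell in both lines. Both comparisons between the lines and both responses share libraries with this difference, and their values are given side by side for that reason.

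**Figure D3:**
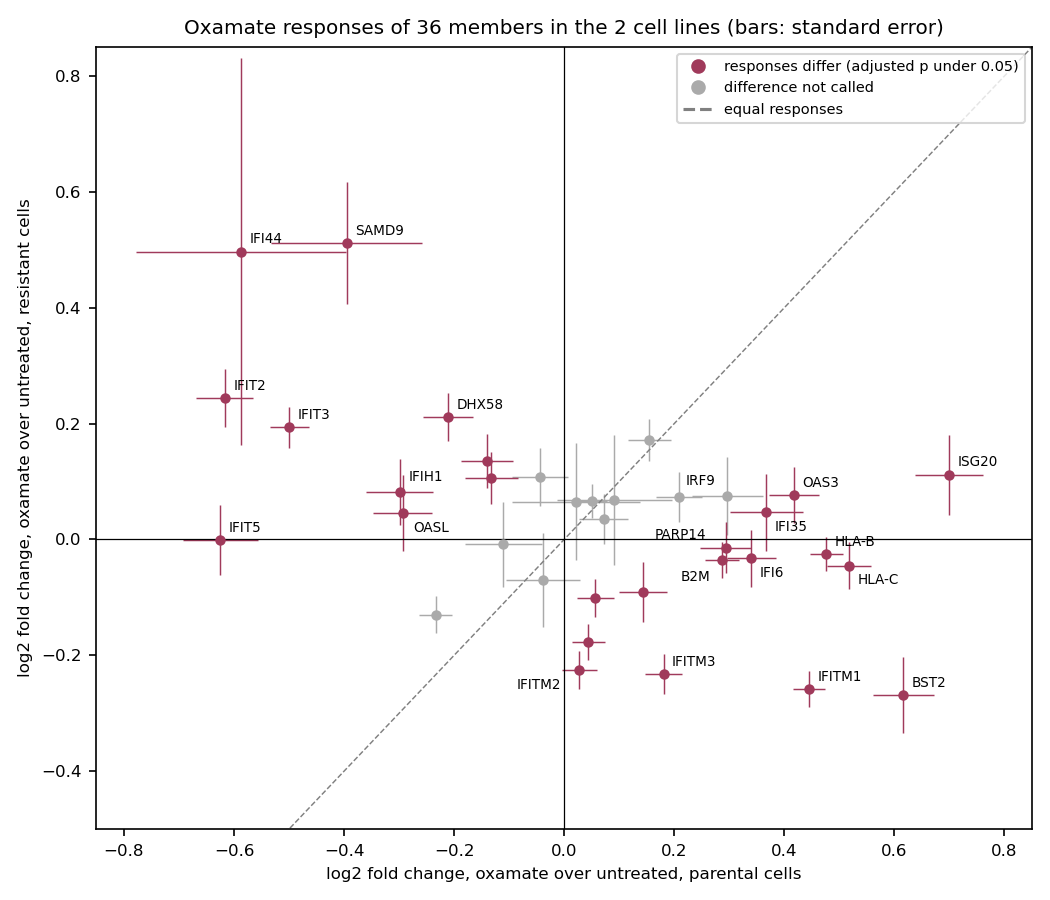
Log2 fold change with oxamate in parental cells (x axis) and in resistant cells (y axis) for 36 members, with standard errors as bars, colored where the difference between the responses had an adjusted p under 0.05 (TRIM22, which had at most 18 counts in a library, is left out). BST2, IFITM1 and IFITM3 lie at the lower right and IFIT2, IFIT3, DHX58 and SAMD9 at the upper left.

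The 3 sensors of viral RNA were higher in resistant cells in both conditions, and all 3 fell with oxamate in parental cells. IFIH1, which encodes the long double-stranded RNA sensor MDA5, was measured at 6.22, 6.96 and 6.63 CPM in untreated parental cells, 5.19, 5.77 and 5.17 in oxamate-treated parental cells, 9.88, 10.3 and 9.93 in untreated resistant cells and 10.7, 10.6 and 10.7 in oxamate-treated resistant cells. Its libraries did not overlap between any pair of groups compared. The log2 difference of resistant over parental cells was 0.61 (SE 0.06, adjusted p = 7.92e-08) without the drug and 0.99 (SE 0.06, adjusted p = 2.55e-10) with it, and the response to oxamate was -0.30 (SE 0.06, adjusted p = 0.000541) in parental cells and 0.08 (SE 0.06, adjusted p = 0.318) in resistant cells. DHX58 encodes LGP2, a regulator of the other sensors, and was present at 9.53, 9.201 and 9.33 CPM in untreated parental cells, 7.97, 8.01 and 8.24 in oxamate-treated parental cells, 14.7, 14.9 and 15.6 in untreated resistant cells and 17.9, 17.1 and 17.2 in oxamate-treated resistant cells. It was 1.61-fold higher in untreated resistant cells and 2.16-fold higher under oxamate (adjusted p = 1.44e-12). Its response changed sign between the lines, from -0.21 (SE 0.04, adjusted p = 0.000805) to 0.21 (SE 0.04, adjusted p = 0.00255). DDX58, which encodes RIG-I, the sensor of RNA with a 5′ triphosphate, moved less, with 11.1, 11.5 and 11.9 CPM in untreated parental cells, 11.01, 10.1 and 10.1 in oxamate-treated parental cells, 13.8, 13.2 and 13.8 in untreated resistant cells and 15.04, 14.8 and 14.9 in oxamate-treated resistant cells. The difference between the lines was 0.24 (SE 0.05, adjusted p = 0.000179) and 0.52 (SE 0.05, adjusted p = 4.44e-08). Its fall in parental cells, -0.14 (SE 0.05, adjusted p = 0.0177), was lost with the nuclear RNA covariate (adjusted p = 0.13) and without replicate 3 of the untreated parental cells (adjusted p = 0.061), replicate 2 of the oxamate-treated parental cells (adjusted p = 0.0696) or replicate 3 of that group (adjusted p = 0.0718).

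Among the signalling factors, IRF1 was raised most. This transcription factor is itself induced by interferon gamma and switches on class I genes. Its level was 22.2, 21.5 and 23.4 CPM in untreated parental cells, 25.6, 23.8 and 25.1 in oxamate-treated parental cells, 42.2, 40.7 and 40.2 in untreated resistant cells and 45.95, 45.4 and 47.4 in oxamate-treated resistant cells. Every resistant library lay above every parental library, with log2 differences of 0.88 (SE 0.04, adjusted p = 6.69e-12) and 0.90 (SE 0.04, adjusted p = 3.05e-12), and oxamate raised it in parental (0.15 (SE 0.04, adjusted p = 0.00289)) and resistant cells (0.17 (SE 0.04, adjusted p = 0.00434)). STAT2, a subunit of ISGF3, was at 32.9, 34.4 and 34.8 CPM in untreated parental cells, 30.8, 31.6 and 36.2 in oxamate-treated parental cells, 44.2, 46.1 and 47.7 in untreated resistant cells and 48.3, 49.1 and 51.3 in oxamate-treated resistant cells. It was higher in resistant cells by 0.44 (SE 0.05, adjusted p = 8.56e-07) without and 0.59 (SE 0.05, adjusted p = 2.19e-08) with oxamate. In parental cells replicate 3 of the oxamate group, the library with the most nuclear-retained RNA of its group, was the highest parental library, and the response of -0.04 (SE 0.05, adjusted p = 0.478) became -0.12 (adjusted p = 0.0175) without it and -0.20 (adjusted p = 0.00342) with the nuclear RNA covariate. The difference between the STAT2 responses, 0.15 (SE 0.07, adjusted p = 0.0978), was called with that covariate, at 0.19 (adjusted p = 0.00318). IRF9, the DNA-binding subunit of ISGF3, was at 20.01, 19.5 and 18.04 CPM in untreated parental cells, 21.9, 21.9 and 26.8 in oxamate-treated parental cells, 19.8, 19.4 and 20.4 in untreated resistant cells and 21.3, 20.3 and 21.2 in oxamate-treated resistant cells. The same library was again the highest. The rise of IRF9 in parental cells, 0.30 (SE 0.06, adjusted p = 0.000983), was 0.10 (adjusted p = 0.255) with the nuclear RNA covariate, and its lower level in resistant cells under oxamate, -0.17 (SE 0.07, adjusted p = 0.0255), was -0.07 (adjusted p = 0.214) without that library and 0.15 with scaling by library size alone. The difference between the IRF9 responses, -0.22 (SE 0.09, adjusted p = 0.0678), was called with the nuclear RNA covariate, at -0.17 (adjusted p = 0.0499). Of the 75-base words in IRF9 transcripts, 40.9% are shared with an annotated readthrough gene, so reads could be split between the annotations. IRF7, the factor that amplifies the type I response, was under the filter, with 6, 5 and 7 counts in untreated parental, 3, 2 and 6 in oxamate-treated parental, 3, 9 and 1 in untreated resistant and 4, 8 and 12 in oxamate-treated resistant cells.

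The effectors that act on RNA were divided. The IFIT genes encode a family of antiviral proteins, of which IFIT1 binds viral RNA lacking the host cap modification. IFIT2, IFIT3 and IFIT5 fell with oxamate in parental cells. For all 3 the response in resistant cells differed from that in parental cells in the direct test. IFIT5 was at 9.47, 9.93 and 10.7 CPM in untreated parental cells, 7.22, 6.03 and 6.201 in oxamate-treated parental cells, 17.8, 17.3 and 15.97 in untreated resistant cells and 16.7, 17.3 and 16.9 in oxamate-treated resistant cells. All 6 resistant libraries lay above all 6 parental libraries, and the oxamate-treated parental libraries were the lowest. The line difference was 0.77 (SE 0.06, adjusted p = 1.23e-08) and, under oxamate, 1.39 (SE 0.07, adjusted p = 1.49e-11), which is 2.62-fold. The response was -0.62 (SE 0.07, adjusted p = 1.16e-06) in parental and -0.001 (SE 0.06, adjusted p = 0.993) in resistant cells, and the difference between them 0.62 (SE 0.09, adjusted p = 5.07e-05).

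IFIT2 did not separate the untreated lines at the threshold but separated them under oxamate. Its level was 25.3, 27.6 and 28.2 CPM in untreated parental cells, 19.3, 16.7 and 16.8 in oxamate-treated parental cells, 29.5, 28.5 and 28.6 in untreated resistant cells and 33.9, 34.7 and 33.9 in oxamate-treated resistant cells. The 3 oxamate-treated parental libraries were the lowest and the 3 oxamate-treated resistant libraries the highest. Resistant and parental cells differed by 0.10 (SE 0.05, adjusted p = 0.0863) without and 0.96 (SE 0.05, adjusted p = 6.47e-11) with oxamate, and the untreated value passed the threshold with some other settings, with scaling by library size alone at 0.32. The response was -0.62 (SE 0.05, adjusted p = 6.78e-08) in parental and 0.24 (SE 0.05, adjusted p = 0.00345) in resistant cells, which differed by 0.86 (SE 0.07, adjusted p = 2.06e-07). IFIT3, a partner of IFIT1 and IFIT2 in a common complex, followed at 29.1, 30.1 and 30.2 CPM in untreated parental cells, 21.5, 21.2 and 20.5 in oxamate-treated parental cells, 27.4, 28.3 and 26.3 in untreated resistant cells and 31.4, 31.7 and 30.7 in oxamate-treated resistant cells. Its response was -0.50 (SE 0.04, adjusted p = 1.17e-08) and 0.19 (SE 0.04, adjusted p = 0.00168), with a difference of 0.69 (SE 0.05, adjusted p = 4.72e-08). The line difference of IFIT3 without the drug was small, at -0.12 (SE 0.03, adjusted p = 0.00435). It was lost with the nuclear RNA covariate (adjusted p = 0.327) and turned to 0.095 with scaling by library size alone. IFIT1, the canonical member, behaved otherwise, with 68.3, 70.4 and 69.5 CPM in untreated parental cells, 71.3, 73.7 and 70.7 in oxamate-treated parental cells, 46.7, 46.9 and 45.02 in untreated resistant cells and 48.7, 49.1 and 47.3 in oxamate-treated resistant cells. It did not pass the threshold for a response in either line (0.05 (SE 0.03, adjusted p = 0.121) and 0.07 (SE 0.03, adjusted p = 0.119)), although the parental value was called with the nuclear RNA covariate (adjusted p = 0.0347), and was lower in resistant cells, at -0.59 (SE 0.03, adjusted p = 2.47e-11) and -0.57 (SE 0.03, adjusted p = 1.9e-11). IFIT1, IFIT2, IFIT3 and IFIT5 lie beside each other on chromosome 10, between base 89302046 and base 89420997 of GRCh38.p14.

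The OAS genes encode enzymes that make 2′-5′ oligoadenylate when bound to double-stranded RNA, and this product activates RNase L. OASL encodes a relative that acts on RIG-I. OASL was at 29.7, 29.01 and 29.3 CPM in untreated parental cells, 24.7, 25.1 and 22.2 in oxamate-treated parental cells, 10.5, 11.7 and 9.81 in untreated resistant cells and 11.6, 10.6 and 10.9 in oxamate-treated resistant cells. The resistant libraries, 9.81 to 11.7 CPM, lay far below the parental ones, and the difference was -1.46 (SE 0.06, adjusted p = 3.21e-12), a level 2.75-fold lower, and -1.12 (SE 0.06, adjusted p = 5.27e-11) under oxamate. Its fall with oxamate in parental cells, -0.29 (SE 0.05, adjusted p = 0.000202), was lost with the nuclear RNA covariate (adjusted p = 0.0853). OAS2 was at 5.27, 5.38 and 5.24 CPM in untreated parental cells, 5.53, 5.18 and 4.81 in oxamate-treated parental cells, 2.74, 2.86 and 2.79 in untreated resistant cells and 2.81, 2.59 and 2.58 in oxamate-treated resistant cells. It was lower in every resistant library, with line differences of -0.92 (SE 0.07, adjusted p = 9.62e-09) and -0.95 (SE 0.08, adjusted p = 6.63e-09), with no called response to oxamate. OAS3 rose in parental cells by 0.42 (SE 0.05, adjusted p = 1.1e-06) and did not differ between the untreated lines at the threshold (-0.02 (SE 0.05, adjusted p = 0.721)), and OAS1, with 2.39 to 3.505 CPM over all libraries, was not called in any comparison. ISG20, which encodes an exonuclease that degrades RNA, had the largest rise with oxamate in parental cells of the members other than TRIM22. Its level was 17.6, 15.9 and 15.9 CPM in untreated parental cells, 27.6, 26.99 and 25.8 in oxamate-treated parental cells, 13.96, 14.7 and 11.96 in untreated resistant cells and 15.5, 13.96 and 14.5 in oxamate-treated resistant cells. The oxamate-treated parental libraries were the highest of all 12. The response was 0.70 (SE 0.06, adjusted p = 1.24e-07) in parental and 0.11 (SE 0.07, adjusted p = 0.267) in resistant cells (adjusted p = 0.0494 with the nuclear RNA covariate), with a difference of -0.59 (SE 0.09, adjusted p = 0.000102). Its lower level in untreated resistant cells, -0.28 (SE 0.07, adjusted p = 0.00106), was lost with the nuclear RNA covariate (adjusted p = 0.104) and with scaling by library size alone.

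**Figure D4:**
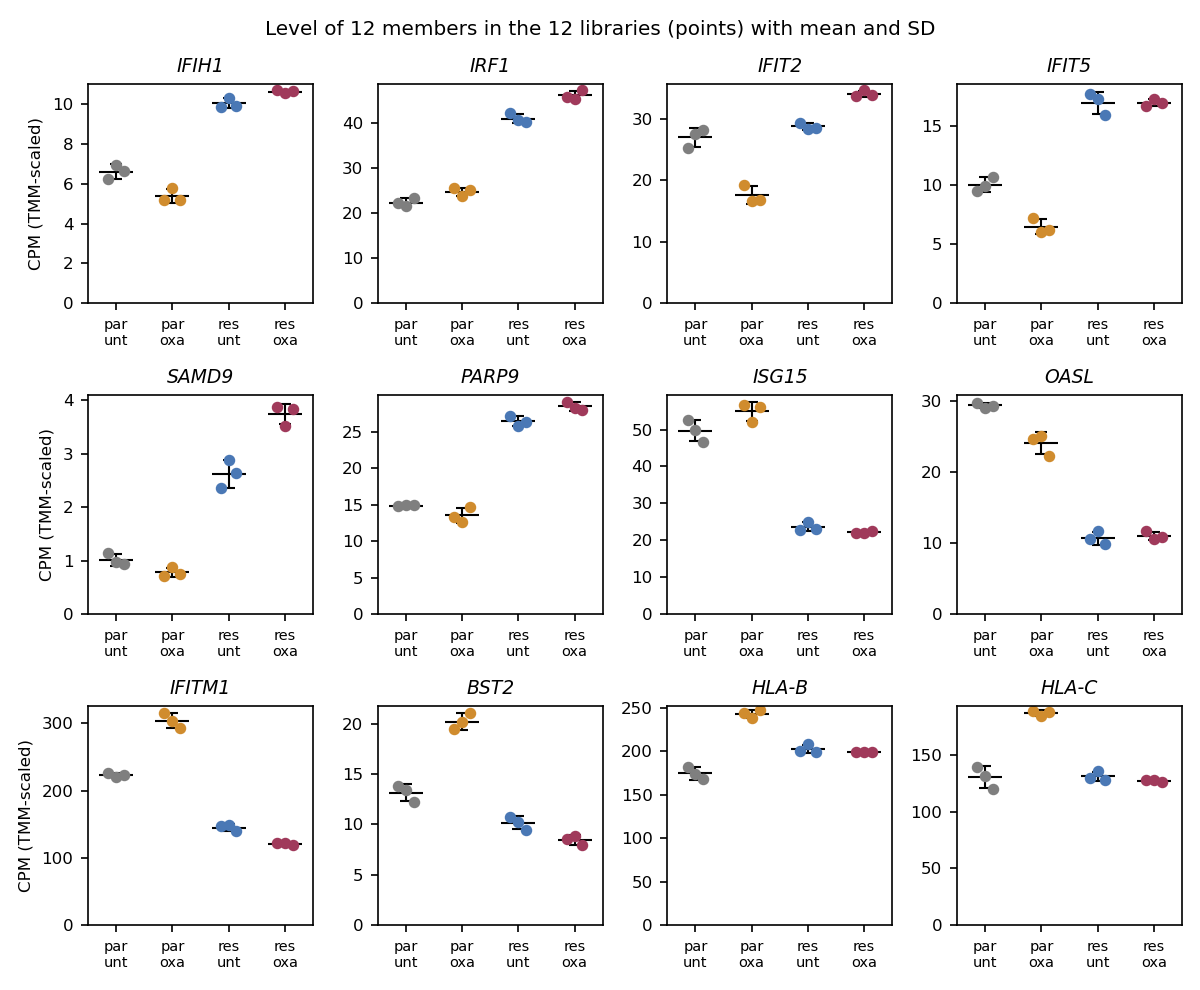
Level in CPM (TMM-scaled, y axes starting at 0) of 12 members in the 12 libraries, with points for libraries and bars for the mean and SD of each group of 3 (par, parental; res, resistant; unt, untreated; oxa, oxamate). IFIT2 and IFIT5 dip in oxamate-treated parental cells, whereas IFITM1, BST2, HLA-B and HLA-C peak there.

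Of the 9 tested proteins that restrict viruses, 5 were higher and 4 lower in untreated resistant cells, where 38.4% and 37.3% of all genes were called. The IFITM genes encode small membrane proteins that block virus fusion, and all 3 were lower in resistant cells. IFITM1 was at 227, 220.1 and 223 CPM in untreated parental cells, 315, 303 and 293 in oxamate-treated parental cells, 147, 148 and 139 in untreated resistant cells and 121, 122 and 119 in oxamate-treated resistant cells. The groups did not overlap in any comparison, with parental cells under oxamate the highest and resistant cells under oxamate the lowest. Between the lines it went from -0.62 (SE 0.03, adjusted p = 3.24e-11) to -1.33 (SE 0.03, adjusted p = 3.06e-15), a level 2.51-fold lower. Its responses were 0.44 (SE 0.03, adjusted p = 5.98e-09) in parental and -0.26 (SE 0.03, adjusted p = 4.82e-05) in resistant cells. IFITM3 was at 257, 247 and 246 CPM in untreated parental cells, 294, 282 and 273 in oxamate-treated parental cells, 167, 174 and 159 in untreated resistant cells and 142, 142 and 142 in oxamate-treated resistant cells. It had the same order of groups, with responses of 0.18 (SE 0.03, adjusted p = 0.000244) and -0.23 (SE 0.03, adjusted p = 0.000333) and line differences of -0.58 (SE 0.03, adjusted p = 2.85e-10) and -0.996 (SE 0.03, adjusted p = 2.71e-13). IFITM2 was at 184, 180.4 and 177 CPM in untreated parental cells, 187, 182 and 183 in oxamate-treated parental cells, 104, 104 and 95.5 in untreated resistant cells and 88.97, 85.7 and 85.1 in oxamate-treated resistant cells. It did not pass the threshold in parental cells (0.03 (SE 0.03, adjusted p = 0.472)), fell in resistant cells (-0.23 (SE 0.03, adjusted p = 0.000303)) and was lower in resistant cells, at -0.84 (SE 0.03, adjusted p = 2.16e-12) and -1.09 (SE 0.03, adjusted p = 5.48e-14). The 3 genes are near-copies. Of the 75-base words in their transcripts 29.8% for IFITM1, 24.2% for IFITM2 and 8.05% for IFITM3 are shared with another gene, so the separate values are uncertain to that extent.

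BST2 encodes tetherin, which holds budding virus at the cell surface. It was measured at 13.8, 13.4 and 12.2 CPM in untreated parental cells, 19.4, 20.1 and 21.04 in oxamate-treated parental cells, 10.7, 10.2 and 9.47 in untreated resistant cells and 8.54, 8.83 and 7.904 in oxamate-treated resistant cells. The order of the groups was that of IFITM1. Oxamate raised it by 0.62 (SE 0.06, adjusted p = 1.65e-07) in parental cells, or 1.53-fold, and the response in resistant cells was -0.27 (SE 0.07, adjusted p = 0.00937), which lost its call without replicate 1 of the untreated (adjusted p = 0.051) or replicate 3 of the oxamate-treated resistant cells (adjusted p = 0.0557). The responses differed by -0.89 (SE 0.09, adjusted p = 9.35e-07), and the line difference went from -0.38 (SE 0.06, adjusted p = 2.81e-05) to -1.27 (SE 0.06, adjusted p = 1.52e-11).

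SAMD9, a cytoplasmic protein that restricts poxviruses, had the largest difference between the lines under oxamate of the 37 tested members. Its level was 1.14, 0.974 and 0.933 CPM in untreated parental cells, 0.715, 0.876 and 0.753 in oxamate-treated parental cells, 2.36, 2.87 and 2.64 in untreated resistant cells and 3.87, 3.52 and 3.83 in oxamate-treated resistant cells. The resistant libraries lay above the parental ones by 1.35 (SE 0.11, adjusted p = 2.51e-08), or 2.56-fold, without the drug and by 2.26 (SE 0.12, adjusted p = 6.45e-11), or 4.79-fold, with it. It rose with oxamate in resistant cells by 0.51 (SE 0.10, adjusted p = 0.00337). The fall in parental cells, -0.40 (SE 0.14, adjusted p = 0.0218), was not called without replicate 1 of the untreated (adjusted p = 0.119), replicate 1 of the oxamate-treated (adjusted p = 0.0767) or replicate 3 of the oxamate-treated parental cells (adjusted p = 0.071), or with the nuclear RNA covariate (adjusted p = 0.132). MX1 encodes a dynamin-like GTPase that traps viral ribonucleoproteins. It was at 1.35, 1.33 and 1.37 CPM in untreated parental cells, 1.41, 1.43 and 1.28 in oxamate-treated parental cells, 2.705, 2.62 and 3.18 in untreated resistant cells and 2.68, 3.02 and 3.19 in oxamate-treated resistant cells. It was 2.104-fold higher in resistant cells without the drug (adjusted p = 1.39e-07) and 2.17-fold higher with it (adjusted p = 1.1e-07), with no called response to oxamate in either line. TRIM21, a cytoplasmic antibody receptor and ubiquitin ligase, was at 10.8, 10.4 and 10.1 CPM in untreated parental cells, 10.9, 11.003 and 11.1 in oxamate-treated parental cells, 16.3, 15.7 and 15.7 in untreated resistant cells and 16.9, 16.4 and 15.6 in oxamate-treated resistant cells. It was higher in resistant cells by 0.60 (SE 0.04, adjusted p = 3.52e-09) and 0.56 (SE 0.04, adjusted p = 6.55e-09). MX2, which blocks the nuclear entry of retroviruses, was higher by 0.27 (SE 0.04, adjusted p = 2.49e-05) and 0.14 (SE 0.04, adjusted p = 0.0087), the second not called without replicate 2 of the oxamate-treated resistant cells (adjusted p = 0.0539). TRIM22 was near the floor, with 3, 4 and 4 counts in untreated parental, 6, 3 and 8 in oxamate-treated parental, 9, 9 and 12 in untreated resistant and 12, 13 and 18 in oxamate-treated resistant cells. Its line difference was 1.998 (SE 0.41, adjusted p = 0.000396), and its response in parental cells, 1.17 (SE 0.47, adjusted p = 0.0463), was not called after any of 4 of the 6 single libraries was left out, or with the nuclear RNA covariate (adjusted p = 0.47).

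ISG15, a ubiquitin-like protein that is joined to other proteins after interferon, and the genes of its companion ADP-ribosylation complex also parted. ISG15 was at 52.5, 49.9 and 46.8 CPM in untreated parental cells, 56.6, 52.1 and 56.2 in oxamate-treated parental cells, 22.9, 25.03 and 22.97 in untreated resistant cells and 21.95, 22.03 and 22.6 in oxamate-treated resistant cells. Resistant libraries lay between 21.95 and 25.03 CPM and no parental library was below 46.8 CPM. The line difference was -1.07 (SE 0.05, adjusted p = 9.34e-12), or 2.11-fold lower, and -1.31 (SE 0.05, adjusted p = 5.77e-13) under oxamate. The rise in parental cells, 0.14 (SE 0.04, adjusted p = 0.0108), was not called without replicate 3 of the untreated cells (adjusted p = 0.0565) or with the nuclear RNA covariate (adjusted p = 0.0845). USP18, which removes ISG15 and dampens the receptor, was not called in any comparison, with -0.12 (SE 0.07, adjusted p = 0.122) between the untreated lines.

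PARP9 and DTX3L form a complex that joins ADP-ribosylation to ubiquitin ligation, and PARP14 is a related ADP-ribosyltransferase. PARP9 was at 14.8, 14.9 and 14.9 CPM in untreated parental cells, 13.3, 12.6 and 14.6 in oxamate-treated parental cells, 27.2, 25.8 and 26.4 in untreated resistant cells and 29.1, 28.2 and 28.04 in oxamate-treated resistant cells. DTX3L was at 32.6, 35.5 and 34.8 CPM in untreated parental cells, 35.99, 35.8 and 35.2 in oxamate-treated parental cells, 54.7, 53.6 and 54.3 in untreated resistant cells and 50.5, 49.4 and 51.6 in oxamate-treated resistant cells. PARP14 was at 16.1, 16.2 and 17.9 CPM in untreated parental cells, 19.7, 20.1 and 21.4 in oxamate-treated parental cells, 29.7, 29.998 and 30.5 in untreated resistant cells and 28.6, 29.9 and 30.9 in oxamate-treated resistant cells. For all 3 genes every resistant library was above every parental library. The line differences were 0.83 (SE 0.05, adjusted p = 1.22e-10) and 1.07 (SE 0.05, adjusted p = 4.75e-12) for PARP9. For DTX3L they were 0.66 (SE 0.03, adjusted p = 3.89e-11) and 0.50 (SE 0.03, adjusted p = 7.63e-10). For PARP14 they were 0.85 (SE 0.05, adjusted p = 9.51e-11) and 0.54 (SE 0.05, adjusted p = 1.5e-08), and oxamate raised PARP14 in parental cells by 0.29 (SE 0.05, adjusted p = 5.77e-05). PARP9 and DTX3L are neighbors on opposite strands of chromosome 3 whose exons share 217 bases, and reads there could not be assigned to a strand because no stranded protocol was stated. The response of DTX3L in resistant cells, -0.10 (SE 0.03, adjusted p = 0.0386), was lost without each of the 6 libraries compared in turn and with the nuclear RNA covariate (adjusted p = 0.123).

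The IFI genes are interferon-induced genes of mixed function. IFI6, an inner mitochondrial membrane and endoplasmic reticulum protein, was at 29.2, 28.97 and 26.4 CPM in untreated parental cells, 36.7, 35.9 and 34.9 in oxamate-treated parental cells, 20.2, 21.2 and 19.02 in untreated resistant cells and 19.9, 19.1 and 20.1 in oxamate-treated resistant cells. It rose with oxamate in parental cells (0.34 (SE 0.04, adjusted p = 7.21e-06)) and was lower in resistant cells, at -0.49 (SE 0.05, adjusted p = 9.47e-08) and -0.86 (SE 0.05, adjusted p = 6.45e-11). IFI35 was at 8.35, 7.497 and 7.03 CPM in untreated parental cells, 10.1, 9.88 and 9.68 in oxamate-treated parental cells, 10.6, 11.98 and 11.4 in untreated resistant cells and 12.5, 11.1 and 11.6 in oxamate-treated resistant cells. It went the other way between the lines, 0.56 (SE 0.07, adjusted p = 1.15e-06) and 0.24 (SE 0.07, adjusted p = 0.00354), and rose in parental cells by 0.37 (SE 0.07, adjusted p = 0.000213). IFI44 was low, at 0.82, 1.096 and 0.965 CPM in untreated parental cells, 0.751, 0.571 and 0.594 in oxamate-treated parental cells, 0.122, 0.235 and 0.12 in untreated resistant cells and 0.191, 0.232 and 0.252 in oxamate-treated resistant cells. The fitted difference was -2.57 (SE 0.25, adjusted p = 1.1e-07) without and -1.49 (SE 0.26, adjusted p = 6.13e-05) with oxamate, from 7, 14 and 7 counts in the untreated resistant libraries. The fall of IFI44 in parental cells, -0.59 (SE 0.19, adjusted p = 0.0151), was not called without replicate 2 of the untreated (adjusted p = 0.0831), replicate 2 of the oxamate-treated (adjusted p = 0.0558) or replicate 3 of the oxamate-treated parental cells (adjusted p = 0.055), or with the nuclear RNA covariate (adjusted p = 0.324). IFI27, with 0 to 14 counts, and IFI44L, with 0 to 1 counts, were under the filter in these cells.

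HLA-B, HLA-C and B2M rose with oxamate in parental cells and were not called in resistant cells. HLA-B and HLA-C encode class I heavy chains, B2M their shared light chain, and TAP1 and TAP2 the subunits of the peptide transporter. HLA-B was at 182, 174 and 168 CPM in untreated parental cells, 244, 238 and 247 in oxamate-treated parental cells, 201, 208 and 199.8 in untreated resistant cells and 199, 199 and 199 in oxamate-treated resistant cells. The oxamate-treated parental libraries lay above the other 9. The response was 0.48 (SE 0.03, adjusted p = 2.65e-09) in parental cells, a level 1.39-fold higher, and -0.03 (SE 0.03, adjusted p = 0.578) in resistant cells. The 2 responses differed by -0.50 (SE 0.04, adjusted p = 2.04e-07). HLA-C was at 139.6, 132 and 120.5 CPM in untreated parental cells, 189, 185 and 188 in oxamate-treated parental cells, 129.8, 136 and 128 in untreated resistant cells and 128, 128 and 127 in oxamate-treated resistant cells. Its responses were 0.52 (SE 0.04, adjusted p = 2.76e-08) and -0.05 (SE 0.04, adjusted p = 0.456), with a difference of -0.56 (SE 0.06, adjusted p = 1.37e-06). B2M was at 439.7, 444 and 437 CPM in untreated parental cells, 556, 539 and 517 in oxamate-treated parental cells, 422, 417 and 399.8 in untreated resistant cells and 408, 413 and 388 in oxamate-treated resistant cells. Its responses were 0.29 (SE 0.03, adjusted p = 1.06e-06) and -0.03 (SE 0.03, adjusted p = 0.451), with a difference of -0.32 (SE 0.04, adjusted p = 2.62e-05).

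Between the untreated lines the class I genes differed little, with HLA-B at 0.22 (SE 0.03, adjusted p = 6.46e-06), HLA-C at 0.01 (SE 0.04, adjusted p = 0.904) and B2M at -0.09 (SE 0.03, adjusted p = 0.0134), and under oxamate all 5 antigen presentation members were lower in resistant cells, HLA-C at -0.56 (SE 0.04, adjusted p = 2.19e-09) and B2M at -0.41 (SE 0.03, adjusted p = 3.38e-09). The smaller values depended on scaling. With library size alone B2M between the untreated lines was 0.13, and under oxamate HLA-B was 0.039, TAP1 0.24 and TAP2 0.059. With the nuclear RNA covariate the calls of B2M between the untreated lines (adjusted p = 0.742) and of TAP1 under oxamate (adjusted p = 0.382) were lost. The B2M call was also lost without replicate 3 of the untreated resistant cells (adjusted p = 0.0698), and the TAP1 call without replicate 1 (adjusted p = 0.053) or 2 (adjusted p = 0.0682) of the oxamate-treated parental or replicate 3 of the oxamate-treated resistant cells (adjusted p = 0.0731). TAP1 had no called response in parental cells (0.04 (SE 0.03, adjusted p = 0.23)), but rose by 0.13 with the nuclear RNA covariate (adjusted p = 0.00446), and fell in resistant cells (-0.18 (SE 0.03, adjusted p = 0.00107)), and TAP2 fell in both (-0.23 (SE 0.03, adjusted p = 7.35e-06) and -0.13 (SE 0.03, adjusted p = 0.0101)). A share of 30.8% of the 75-base words of TAP2 is held by another annotation that overlaps it on the same strand, and 15.4% of TAP1 exon bases overlap an antisense RNA. HLA genes vary between people, and reads of this line's alleles were mapped to a single reference.

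Of 17 other genes of class I presentation 15 were tested. Oxamate raised 13 and lowered 1 of them in parental cells, with 28.3% and 30.4% of all genes called, and raised 0 and lowered 2 in resistant cells, with 9.01% and 12.5% called. The response of resistant minus that of parental cells was below 0 and called for 14 of the 15, against 21.4% of all genes, with a median of -0.24, beside a median of -0.01 over all genes. CANX, which encodes the chaperone calnexin, responded by 0.22 (SE 0.02, adjusted p = 4.69e-07) in parental and -0.03 (SE 0.02, adjusted p = 0.42) in resistant cells. The gene that fell in parental cells was NLRC5, the transactivator of class I genes (-0.30 (SE 0.08, adjusted p = 0.00351)). Between the untreated lines 7 were higher and 6 lower in resistant cells, close to the 38.4% and 37.3% of all genes, from the immunoproteasome subunit PSMB8 at 0.86 (SE 0.05, adjusted p = 6.03e-10) to the chaperone CALR at -0.63 (SE 0.02, adjusted p = 6.44e-13).

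MHC class II genes present peptides taken up from outside and are controlled by the transactivator CIITA. All 10 listed genes were higher in untreated resistant than in untreated parental cells, with a median log2 difference of 2.83, and 8 were higher under oxamate, with a median of 2.103. Among all genes 38.4% and 40.6% were called higher in these comparisons. Their summed level was 8.41 to 8.51 CPM in untreated parental, 10.6 to 11.8 CPM in oxamate-treated parental, 42.6 to 44.5 CPM in untreated resistant and 36.2 to 38.5 CPM in oxamate-treated resistant libraries. CD74, the invariant chain, was at 2.07, 1.77 and 1.99 CPM in untreated parental cells, 3.31, 3.12 and 3.25 in oxamate-treated parental cells, 17.7, 17.4 and 16.6 in untreated resistant cells and 14.2, 13.6 and 13.2 in oxamate-treated resistant cells. Resistant cells were higher by 3.15 (SE 0.06, adjusted p = 1.42e-15) without and 2.08 (SE 0.06, adjusted p = 6.89e-14) with oxamate. CIITA itself was at 0.396, 0.406 and 0.37 CPM in untreated parental cells, 0.322, 0.19 and 0.333 in oxamate-treated parental cells, 2.303, 2.82 and 3.27 in untreated resistant cells and 2.603, 2.98 and 3.24 in oxamate-treated resistant cells, a difference of 2.83 (SE 0.17, adjusted p = 3.4e-10) without the drug. Oxamate raised 5 of the 10 in parental cells and lowered 2 in resistant cells, against 28.3% and 12.5% of all genes, and the difference between the responses was called below 0 for 5, against 21.4%. For CD74 it was -1.07 (SE 0.09, adjusted p = 3.17e-07). The summed level of the 6 leukocyte markers, most of it LYZ, was lower in untreated resistant cells (19.98 to 20.5 CPM) than in untreated parental cells (28.02 to 28.2 CPM). It was 28.6 to 28.9 CPM in oxamate-treated parental and 20.5 to 21.03 CPM in oxamate-treated resistant cells, so that the parental sums did not overlap between untreated and treated cells. In parental cells the monocyte marker CD14 went from 2.36, 2.75 and 2.54 to 4.61, 4.99 and 4.42 CPM, a response of 0.87 (SE 0.10, adjusted p = 2.58e-06) that passed the study's threshold, whereas LYZ went from 25.7, 25.2 and 25.5 to 24.3, 23.6 and 24.1 CPM. Their part in the class II response was not tested.

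**Figure D5:**
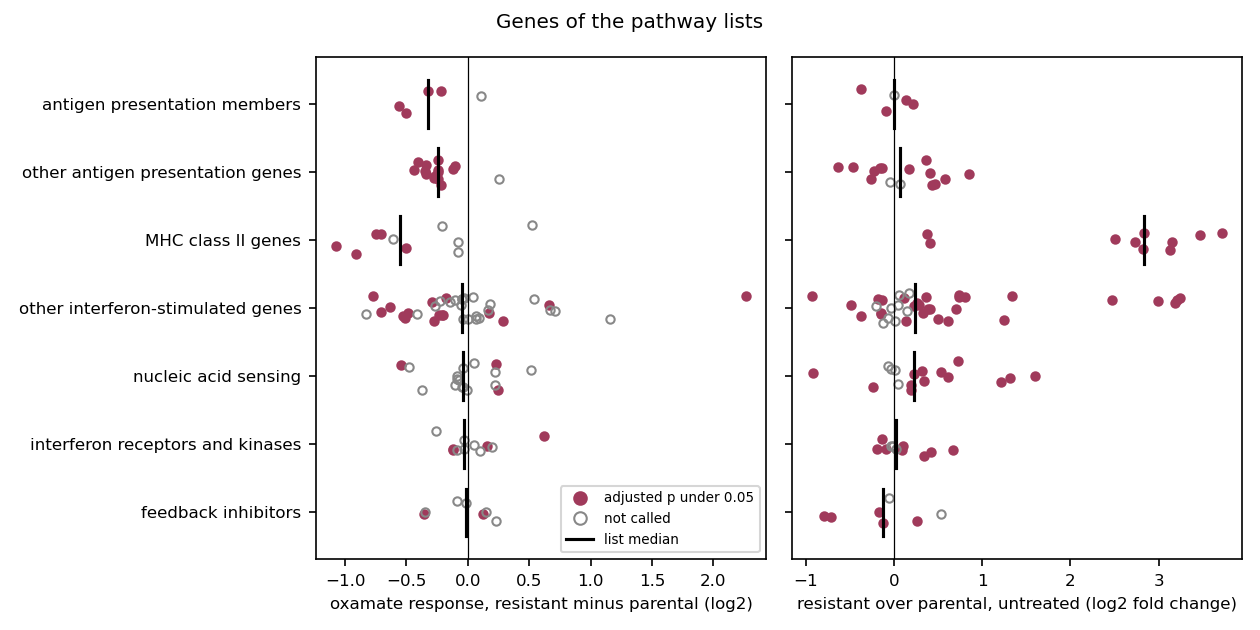
Difference between the oxamate responses (left) and difference between the untreated lines (right), both on the log2 scale, for genes of 7 lists, with a filled point for each gene at an adjusted p under 0.05, an open point for each other gene and a bar at the list median. Every called gene of both antigen presentation lists lies below 0 on the left, and the class II genes reach between 0.38 and 3.71 on the right.

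Of 38 further interferon-stimulated genes tested outside the 40, 22 were higher and 7 lower in untreated resistant cells with a median of 0.24, where 38.4% and 37.3% of all genes were called. Under oxamate 21 were higher and 15 lower with a median of 0.29, against 40.6% and 39.7% of all genes. The guanylate-binding proteins GBP1 and GBP3, interferon gamma-induced GTPases, had differences of 3.20 (SE 0.11, adjusted p = 9.69e-13) and 2.99 (SE 0.10, adjusted p = 3.05e-13), and SAMD9L, the neighbor and relative of SAMD9, had 3.24 (SE 0.25, adjusted p = 8.9e-09). HERC5, the main ligase that joins ISG15 to proteins, was lower at -0.49 (SE 0.04, adjusted p = 4.78e-08). Oxamate raised 14 and lowered 8 of them in parental cells (all genes, 28.3% and 30.4%), with the secreted lectin-binding protein LGALS3BP at 0.54 (SE 0.02, adjusted p = 1.29e-10), GBP2 at 0.59 (SE 0.03, adjusted p = 5.19e-10) and ZNFX1, a sensor of viral RNA, at -0.48 (SE 0.05, adjusted p = 2.98e-07). In resistant cells 1 rose (ZNFX1, 0.17 (SE 0.04, adjusted p = 0.0101)) and 8 fell (all genes, 9.01% and 12.5%).

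Upstream of these genes, interferon transcripts themselves were nearly absent. Of 21 ligand genes, 18 had fewer than 3 counts in every library, and the sum over all 21 lay between 0.202 and 0.895 CPM. The tested ligands IFNL1 and IFNL2, type III interferons, were lower in untreated resistant cells, at -1.82 (SE 0.36, adjusted p = 0.000237) and -1.21 (SE 0.49, adjusted p = 0.0339). These rest on few counts, with 10, 6 and 6 for IFNL1 and 8, 2 and 7 for IFNL2 in the untreated resistant libraries. IFNL2 and IFNL3 held fractional counts (20.43 and 13.57 in replicate 1 of untreated parental cells), so reads were divided between genes. Among 11 receptor and kinase genes 5 were higher and 3 lower in untreated resistant cells, where 38.4% and 37.3% of all genes were called, shares that also stand beside the 2 lists that follow. IFNAR2, a chain of the type I receptor, was at 11.03, 10.9 and 11.1 CPM in untreated parental cells, 7.85, 7.79 and 7.75 in oxamate-treated parental cells, 17.9, 17.1 and 17.4 in untreated resistant cells and 17.95, 19.1 and 20.02 in oxamate-treated resistant cells. It was higher in resistant cells by 0.67 (SE 0.04, adjusted p = 1.18e-09) and 1.29 (SE 0.05, adjusted p = 5.22e-13), and fell with oxamate in parental cells (-0.50 (SE 0.05, adjusted p = 2.97e-07)). The oxamate-treated parental libraries were the lowest of all 12. The other chain, IFNAR1, was higher by 0.42 (SE 0.03, adjusted p = 8.14e-09). TYK2 was slightly lower in resistant cells at -0.19 (SE 0.03, adjusted p = 4.62e-05), and JAK1 was not called (-0.01 (SE 0.03, adjusted p = 0.666)). Of 7 feedback inhibitors 1 was higher and 4 lower in untreated resistant cells, and SOCS1, which blocks JAK kinases, was at -0.79 (SE 0.06, adjusted p = 3.41e-09). Of 17 nucleic acid sensing genes tested 11 were higher and 2 lower, with the ubiquitin ligase TRIM25 at 0.73 (SE 0.03, adjusted p = 7.01e-12), the kinase IKBKE at 1.59 (SE 0.08, adjusted p = 3.44e-11) and the adaptor TMEM173 (STING) at -0.92 (SE 0.06, adjusted p = 8.24e-10).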

How the data were processed

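Libraries were made from oligo(dT)-enriched mRNA with the NEBNext Ultra kit and sequenced as paired ends. The deposited values are expected counts per gene symbol. Per the labels and the study's methods, the authors mapped reads to UCSC transcripts with Bowtie2 2.1.0 and estimated counts with RSEM 1.2.15, with hg38 as the build. The methods also describe another pipeline for gene counts, and the table analysed here holds fractional values (11.6% of values were not whole), which were rounded.

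Counts were filtered with filterByExpr, scaled by TMM and tested with edgeR 4.0.16 (R 4.3.3) by the quasi-likelihood test over all 12 samples, with the means of the 4 groups as the model and Benjamini-Hochberg adjustment over 14582 genes. Standard errors (SE) are the log2 fold change over the root of its F statistic. DESeq2 1.42.0 and limma-voom 3.58.1 were alternatives. The test scripts were tested on simulated data. The 40 members and all lists were chosen with earlier results of these data known. Values in every sample are given for up to 3 members a role with the smallest p, and for every member past the study's threshold. From the other lists, at most 2 genes a comparison and direction are given, with the receptors, JAK1 and TYK2. Some genes of these lists are not reported here by name. CIITA, SAMD9L and IFIT3 were named after their values were seen, and the remaining members are given by their fold changes. Promoters came from RefSeq (GRCh38.p14), and shared 75-base words from GENCODE transcripts.

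The main fit did not treat equal replicate numbers as pairs, and no pairing was stated. Correlations of deviations lay between -0.11 and 0.28 over 18 pairs of equal number. Their median was 0.06, against -0.02 for different numbers, which does not settle whether the numbers pair the samples. Depth limits low genes such as TRIM22, IFI44 and the class II genes. The floor of 3 counts only describes levels, and it entered neither the filter nor the tests.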

Additional observations from a re-analysis of the deposited data

Results flagged for a closer look

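The oxamate responses of 25 members differed between resistant and parental cells in the test of the difference itself (edgeR's quasi-likelihood test, Benjamini-Hochberg adjusted p under 0.05). Given as the response of resistant minus that of parental cells on the log2 scale, the 10 members above 0 were IFI44 at 1.08, SAMD9 at 0.91, IFIT2 at 0.86, IFIT3 at 0.69, IFIT5 at 0.62, DHX58 at 0.42, IFIH1 at 0.38, OASL at 0.34, DDX58 at 0.28 and PARP9 at 0.24. The 15 members below 0 were BST2 at -0.89, IFITM1 at -0.70, ISG20 at -0.59, HLA-C at -0.56, HLA-B at -0.50, IFITM3 at -0.41, IFI6 at -0.37, OAS3 at -0.34, B2M at -0.32, IFI35 at -0.32, PARP14 at -0.31, IFITM2 at -0.25, ISG15 at -0.23, TAP1 at -0.22 and DTX3L at -0.16. Among all genes tested 22.7% were called above and 21.4% below 0. With the nuclear RNA covariate STAT2 (adjusted p = 0.00318) and IRF9 (adjusted p = 0.0499) were also called. Other settings or left-out libraries added calls of IFIT1, MX2 and TAP2. Of the 25 calls 21 were kept under every alternative setting and left-out library. The call of IFI44 was lost with DESeq2 (adjusted p = 0.0857) and without any of 7 single libraries, and those of ISG15 (adjusted p = 0.145), DTX3L (adjusted p = 0.42) and IFI35 (adjusted p = 0.07) were lost with scaling by library size alone.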

How the results depend on the processing

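With the study's threshold in place of the adjusted p, the members called higher and lower were 3 and 3 for oxamate in parental cells, 0 and 0 in resistant cells, 11 and 7 between the untreated lines, 10 and 10 between the treated lines, and 5 and 3 for the difference between the responses. With only the libraries compared, 8 members in place of 5 rose in resistant cells. Scaling by library size alone moved the median of all genes by -0.07, 0.03, 0.22, 0.32 and 0.10 in the same order of comparisons and turned the sign of some members. Between the untreated lines IFIT3 became 0.095, OAS3 0.20 and B2M 0.13, and between the treated lines IRF9 0.15, USP18 0.30, TAP1 0.24, TAP2 0.059 and HLA-B 0.039. Leaving out 1 library at a time gave 15 to 16 members higher and 8 to 10 lower for oxamate in parental cells, 5 higher and 5 to 6 lower in resistant cells, 17 to 18 and 13 to 14 between the untreated lines, 16 to 18 and 17 to 18 between the treated lines, and 9 to 11 and 15 to 16 for the difference. Calls kept under every setting numbered 18 of 27, 10 of 12, 28 of 31, 29 of 35 and 21 of 25. With the replicate number as a block, which was not stated to be a pairing, 15 members were higher and 11 lower for oxamate in parental cells, where TRIM22 was lost (adjusted p = 0.0614). The counts were 6 and 7 in resistant cells, 17 and 14 between the untreated lines, 17 and 18 between the treated lines, and 11 and 15 for the difference. Of the 12 samples 7 were closest to another of their own number. Counts thinned to the smallest library lost DDX58, TRIM22 and PARP9 for oxamate in parental cells and IRF9 between the treated lines. For oxamate in parental cells DESeq2 lost DDX58 (adjusted p = 0.0552), SAMD9 (adjusted p = 0.0709), IFI44 (adjusted p = 0.0794) and TRIM22 (adjusted p = 0.155). In resistant cells it lost DTX3L (adjusted p = 0.0502). The cause of these changes was not tested.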
